A study of Arabidopsis thaliana with 10 samples.

Results

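The EARLI1 and AZI1 cluster is a row of 8 related genes on Arabidopsis thaliana chromosome 4, here the loci AT4G12470 (AZI1), AT4G12480 (EARLI1), AT4G12490, AT4G12500, AT4G12510, AT4G12520, AT4G12530 and AT4G12545. They were taken by locus from the 38303 genes of each deposited table, and all 8 were found. The cluster was chosen by its FPKM in these tables, among them the high EARLI1 level with BEH2 overexpression, so its values are a description and no test of its own is attached. Whole 12-day-old seedlings of the accession Col-0, kept at 23 °C under a 16 h light and 8 h dark cycle, were sequenced in 10 mRNA libraries, 2 for each of 5 groups. In the overexpression experiment the groups were a BEH2-YFP line and a BZR1-YFP line, each driven by the constitutive 35S promoter in Col-0, and Col-0 itself, all without treatment. The hormone experiment set Col-0 given 100 nM brassinolide (BL), an active brassinosteroid, for 6 h against Col-0 given mock, which the titles call non-treatment. The labels do not say how many independent lines stand behind each transgene. Whether cells expressed a gene more strongly or more cells expressed it cannot be told apart in whole seedlings.

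BZR1 and BEH2 are related transcription factors at the end of the brassinosteroid pathway, and the series asks whether they regulate different genes. The cluster genes encode small secretory-pathway proteins of the lipid transfer and 2S albumin superfamily, in which cysteines hold a compact fold with a lipid-binding pocket; in the longer members a proline-rich stretch precedes it. AZI1, named for its induction by azelaic acid, is needed for the priming of systemic immunity, in which a local infection prepares distant leaves to respond faster. EARLI1 is known as a gene responsive to aluminium, cold and vernalization.

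The overexpressed transcripts stood where the labels place them. BEH2 had 2477 FPKM (fragment counts scaled by transcript length and sequencing depth) in BEH2-YFP, 25.7 in BZR1-YFP and 25.8 in Col-0. BZR1 had 1265 FPKM in BZR1-YFP, 15.7 in BEH2-YFP and 13.8 in Col-0. Each value is the authors' pooled FPKM of a group, which shows neither the depth of a library nor the spread between the libraries of a group. Genes are termed called where the authors' deposited tables list q-values below 0.05. The number after ± is a standard error of the log2 ratio worked back from the test statistic. That statistic compares 2 libraries with 2, and the labels do not say whether these came from separate plantings, so the error may be technical in part.

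The 8 genes span 33772 bases of the assembly TAIR10.1, from 7401087 to 7434858 on chromosome 4, with 7 on the minus strand and AT4G12545 on the plus strand. Every coding sequence is 1 uninterrupted segment in the annotation. AZI1, EARLI1, AT4G12490 and AT4G12500 encode 161, 168, 182 and 177 residues, of which 14.9% to 18.1% are prolines by codon count. The 4 shorter genes AT4G12510, AT4G12520, AT4G12530 and AT4G12545 encode 108 to 129 residues with 5.98% to 7.75% prolines. Cysteine codons number 9 to 11 in all 8. AZI1 and EARLI1 share 84.1% of aligned coding bases, AT4G12490 and AT4G12500 share 90.3%, and AT4G12510 and AT4G12520 share 388 of 390.

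Sequence identity limits what reads can separate. Of all 50-base windows of the AZI1, EARLI1 and AT4G12530 transcripts, 0 occurred elsewhere on the 5 nuclear chromosomes. Of the AT4G12510 windows 51.8% did, and of the AT4G12520 windows 58.1%, so the split of reads between this pair is uncertain. For AT4G12490, AT4G12500 and AT4G12545 the shares were 6.78%, 5.45% and 11.9%. On the opposite strand, AT4G12495 overlaps AT4G12490 by 282 bases, AT4G12543 overlaps AT4G12545 by 444 and AT4G12485 overlaps EARLI1 by 32. The libraries came from a stranded kit, but the use of strand in counting is not given in the sources used here. Reads of such overlaps therefore cannot be told apart. AT4G12485 was listed at 0 FPKM in all 5 groups and AT4G12543 at 0.158 FPKM at most, while AT4G12495 was listed at 11.1 FPKM or more.

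The 300 bases before the annotated starts of AZI1, EARLI1 and AT4G12545 are shown because AZI1 and EARLI1 were higher and AT4G12545 was lower in BEH2-YFP. They are RefSeq sequences of TAIR10.1, read toward each gene, at chr4:7401952-7402251 and chr4:7406995-7407294 on the minus strand and chr4:7433899-7434198 on the plus strand. Capitals mark every match, on either strand, to CGTGTG or CGTGCG (brassinosteroid response elements), CANNTG (E-box), CACGTG (G-box, itself an E-box), TTGAC (W-box core) or TGACG (TGA factor core).
AZI1: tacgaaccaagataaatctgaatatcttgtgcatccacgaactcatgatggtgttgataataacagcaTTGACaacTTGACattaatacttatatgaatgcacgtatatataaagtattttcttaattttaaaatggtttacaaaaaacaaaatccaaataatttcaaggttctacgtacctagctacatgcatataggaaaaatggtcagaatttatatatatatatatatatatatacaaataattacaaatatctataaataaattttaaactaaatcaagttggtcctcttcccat
EARLI1: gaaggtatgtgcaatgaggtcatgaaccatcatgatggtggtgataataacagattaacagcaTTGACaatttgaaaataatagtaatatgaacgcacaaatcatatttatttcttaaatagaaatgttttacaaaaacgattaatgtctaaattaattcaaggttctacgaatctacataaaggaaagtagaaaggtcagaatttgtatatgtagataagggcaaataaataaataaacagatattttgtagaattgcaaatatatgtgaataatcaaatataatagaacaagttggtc
AT4G12545: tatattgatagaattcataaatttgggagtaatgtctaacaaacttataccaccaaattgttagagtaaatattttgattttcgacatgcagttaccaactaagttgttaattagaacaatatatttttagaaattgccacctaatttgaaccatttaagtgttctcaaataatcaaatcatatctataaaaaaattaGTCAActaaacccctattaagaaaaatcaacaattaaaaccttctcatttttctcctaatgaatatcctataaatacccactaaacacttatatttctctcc

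In these 3 windows TTGAC, the core bound by WRKY factors, was present before AZI1 (2 matches), EARLI1 (1 match) and AT4G12545 (1 match). It was also in 50.4% of the 27443 windows of the same length before protein-coding genes. The brassinosteroid response elements were in 0 of the 3 windows, against 6.11% of all windows for CGTGTG and 1.78% for CGTGCG. The E-box was in 0 of the 3 and in 61.9% of all windows, and the G-box in 0 of the 3 and in 7.09% of all. The TGA factor core was in 0 of the 3 and in 21.3% of all windows. These matches describe letters only, and the absence of a match says nothing of the factor.

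The first comparison, the BEH2-YFP line against Col-0, shows the cluster under strong BEH2 expression. The 4 proline-rich genes at one end of the row were higher in BEH2-YFP, and AT4G12545 at the other end was lower. EARLI1 had 1945 FPKM in BEH2-YFP and 50.5 FPKM in Col-0, a 38.6-fold higher level (log2 5.27 ± 0.23). AZI1 had 537 FPKM in BEH2-YFP and 33.9 FPKM in Col-0, 15.9-fold higher (log2 3.99 ± 0.20). By ratio, EARLI1 ranked 19 and AZI1 ranked 50 of 22614 tested genes with a ratio. By level, EARLI1 moved to rank 33 of all 38303 genes in BEH2-YFP, against rank 2455 in Col-0.

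AT4G12490 and AT4G12500, the closest relatives of EARLI1 and AZI1, were far less abundant. AT4G12490 had 24.8 FPKM in BEH2-YFP and 3.22 FPKM in Col-0, 7.71-fold higher (log2 2.95 ± 0.33). The gene on its opposite strand, AT4G12495, had 89.9 FPKM in BEH2-YFP and 11.1 FPKM in Col-0, so the reads behind the pair may be the same. AT4G12500 had 6.54 FPKM in BEH2-YFP and 1.59 FPKM in Col-0, 4.11-fold higher (log2 2.04 ± 0.35). By ratio the order was thus EARLI1, AZI1, AT4G12490 and AT4G12500, the order of their levels in BEH2-YFP as well.

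The shorter genes did not share the rise. AT4G12510 had 4.83 FPKM in BEH2-YFP and 7.69 FPKM in Col-0 (log2 -0.67 ± 0.29), and its near copy AT4G12520 had 7.57 and 9.10 FPKM in the same groups (log2 -0.27 ± 0.26); neither was called. AT4G12530 was scarcely present, with 0.217 FPKM in BEH2-YFP and 0.289 FPKM in Col-0, and was not tested by the authors. AT4G12545 had 22.1 FPKM in BEH2-YFP and 50.2 FPKM in Col-0, 2.27-fold lower (log2 -1.19 ± 0.21). Of the 8 genes, 7 were tested and 5 called in the authors' deposited table, 4 higher and 1 lower, where 11.8% of all 22729 tested genes were called, 7.31% higher and 4.53% lower. This comparison was among those in view when the cluster was picked, so nothing is read from that count. The median log2 ratio over the 8 genes was 0.89, beside -0.01 over all tested genes; it was 2.04 without AT4G12530, the gene under 1 FPKM, since the median falls between the 2 directions.

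**Figure D1:**
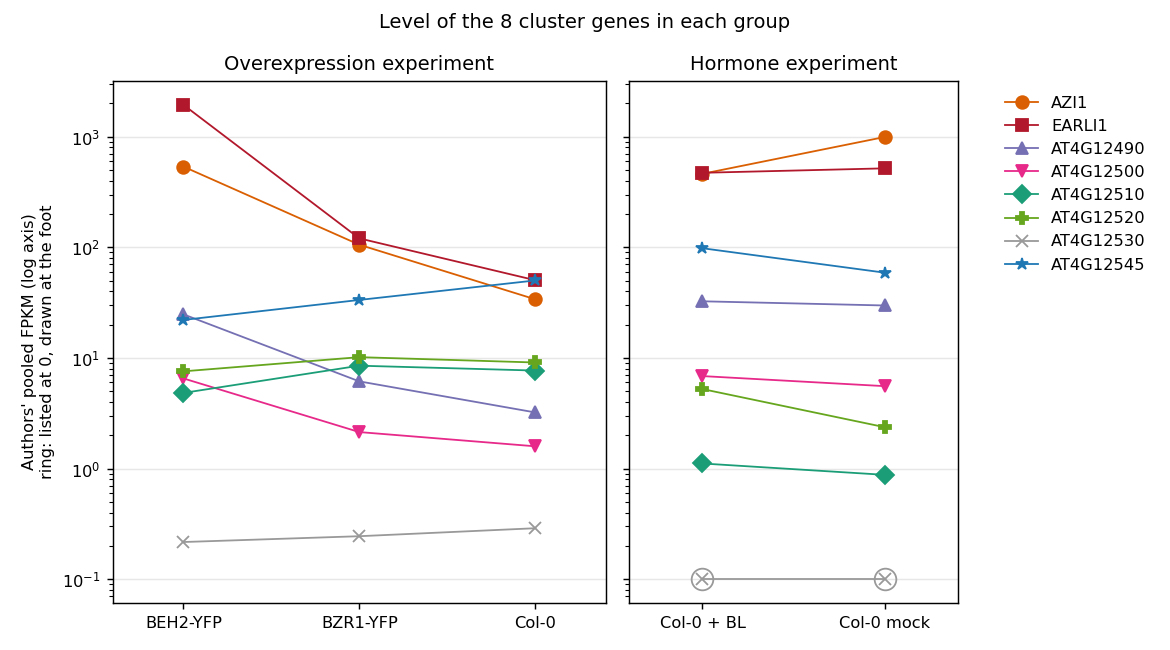
Authors' pooled FPKM (log axis) of each cluster gene in the 3 groups of the overexpression experiment and the 2 groups of the hormone experiment; each line links the values of a gene, and rings mark AT4G12530 where it is listed at 0. EARLI1 stands highest in BEH2-YFP at 1945 FPKM, and AZI1 highest in Col-0 mock at 995 FPKM.

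The BZR1-YFP line was set against the same Col-0 libraries. AZI1 and EARLI1 were higher here too, by smaller ratios and with AZI1 ahead. AZI1 had 106 FPKM in BZR1-YFP and 33.9 FPKM in Col-0, 3.12-fold higher (log2 1.64 ± 0.19). EARLI1 had 121 FPKM in BZR1-YFP and 50.5 FPKM in Col-0, 2.39-fold higher (log2 1.26 ± 0.19). They ranked 131 and 236 of 22531 tested genes with a ratio, and the authors' deposited table gives each a q-value of 0.00149, its smallest.

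The remaining genes of the cluster were not called with BZR1-YFP. AT4G12490 had 6.14 FPKM in BZR1-YFP and 3.22 FPKM in Col-0 (log2 0.93 ± 0.37; q = 0.137 in the authors' deposited table). AT4G12500 had 2.14 and 1.59 FPKM in those groups (log2 0.43 ± 0.41). AT4G12510 stood at 8.51 FPKM in BZR1-YFP and 7.69 FPKM in Col-0, AT4G12520 at 10.2 and 9.10 FPKM, and AT4G12530 at 0.245 and 0.289 FPKM. AT4G12545 had 33.4 FPKM in BZR1-YFP and 50.2 FPKM in Col-0, a log2 ratio of -0.59 ± 0.20, just outside the threshold (q = 0.0559 in the authors' deposited table). AZI1 and EARLI1 carry the same q-value in both overexpression comparisons, so the authors' adjustment may have run over both together. How near AT4G12545 would lie to the threshold with BZR1-YFP alone is not given. Of 7 tested members 2 were called, both higher, where 1.62% of all 22605 tested genes were called, 1.15% higher and 0.478% lower. The levels in BZR1-YFP were also in view when the cluster was picked, so nothing is read from this count. The median log2 ratio over the 8 genes was 0.29, beside 0.00 over all tested genes.

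Side by side, the level in BEH2-YFP was 16.1 times that in BZR1-YFP for EARLI1, 5.09 times for AZI1, 4.04 times for AT4G12490 and 3.06 times for AT4G12500. For AT4G12545 it was 0.66 times the BZR1-YFP level. These ratios of the 2 lines were not tested. EARLI1 made up 76.3% of the summed FPKM of the cluster in BEH2-YFP, 42.0% in BZR1-YFP and 32.3% in Col-0. Its level was 3.62 times that of AZI1 in BEH2-YFP, 1.14 times in BZR1-YFP and 1.49 times in Col-0. The sum itself was 2549 FPKM in BEH2-YFP, 286.8 FPKM in BZR1-YFP and 156 FPKM in Col-0.

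**Figure D2:**
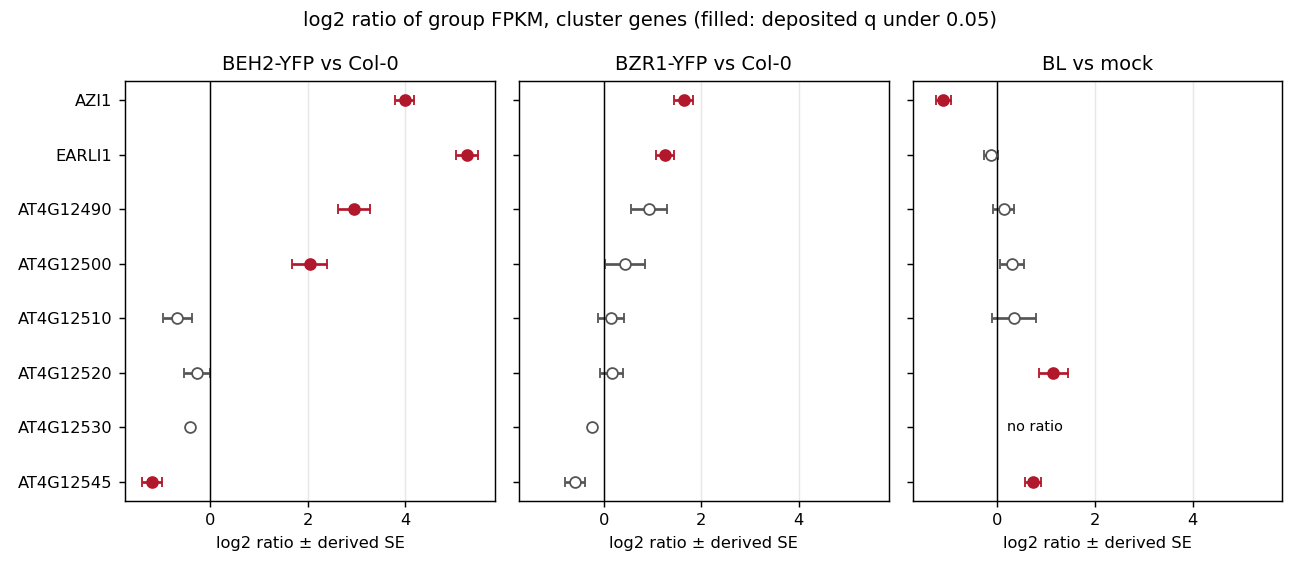
The log2 ratio of group FPKM ± derived standard error for the cluster genes in chromosome order, in the 3 comparisons; filled red points have a deposited q-value under 0.05, and AT4G12530 has no error because it was not tested. The first 4 genes lie right of 0 in BEH2-YFP, from 2.04 to 5.27, while AZI1 lies left of 0 with BL, at -1.11.

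Brassinolide against mock asks what the hormone changes within 6 h. Here AZI1 was lower and AT4G12520 and AT4G12545 were higher, while EARLI1 was not called. AZI1 had 462 FPKM with BL and 995 FPKM in mock, a fall by 1.11 on the log2 scale with a standard error of 0.15, or 2.15-fold lower (q = 0.00175 in the authors' deposited table). EARLI1 had 472 FPKM with BL and 517.8 FPKM in mock (log2 -0.13 ± 0.15, with a 95% interval from -0.43 to 0.16). EARLI1 stood at 1.02 times the AZI1 level with BL and at 0.52 times in mock.

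AT4G12490 had 32.5 FPKM with BL and 29.8 FPKM in mock, and AT4G12500 had 6.86 and 5.56 FPKM in the same groups; neither was called. AT4G12520 had 5.23 FPKM with BL and 2.36 FPKM in mock (log2 1.15 ± 0.30; q = 0.00833 in the authors' deposited table). Its near copy AT4G12510 had 1.11 FPKM with BL and 0.878 FPKM in mock (log2 0.34 ± 0.45) and was not called. AT4G12545 had 98.1 FPKM with BL and 59.0 FPKM in mock, 1.66-fold higher (log2 0.73 ± 0.16; q = 0.00175 in the authors' deposited table). AT4G12530 was listed at 0 in both groups. Of 7 tested members 3 were called, 2 higher and 1 lower, where 5.46% of all 22864 tested genes were called, 3.01% higher and 2.45% lower. The levels with BL and in mock were in view as well when the cluster was picked, so nothing is read from this count. The median log2 ratio over the 7 genes with a ratio was 0.30, beside 0.00 over all tested genes.

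The wild-type controls of the experiments stood far apart for the same genes. AZI1 had 995 FPKM in Col-0 mock and 33.9 FPKM in untreated Col-0, a ratio of 29.4, and ranked 38 by level in mock against 3766 in untreated Col-0. EARLI1 had 517.8 FPKM in mock and 50.5 FPKM in untreated Col-0, a ratio of 10.3. AT4G12490, with 29.8 and 3.22 FPKM, had a ratio of 9.27, and AT4G12500, with 5.56 and 1.59 FPKM, a ratio of 3.50. The mock level of AZI1 was thus above its level in BEH2-YFP, and those of AT4G12490 in mock (29.8 FPKM) and with BL (32.5 FPKM) were above its BEH2-YFP level of 24.8 FPKM.

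AT4G12510 and AT4G12520 lay on the other side. AT4G12510 had 0.878 FPKM in mock and 7.69 FPKM in untreated Col-0, 8.77-fold lower, and AT4G12520 had 2.36 and 9.10 FPKM, 3.85-fold lower. AT4G12545 had 59.0 FPKM in mock and 50.2 FPKM in untreated Col-0. It lay at percentile 50.5 of the 16148 genes detected in both controls with at least 5 FPKM in either. Over these genes the median log2 ratio was 0.23 and the central 90% ran from -1.13 to 1.32. AZI1 ranked 20, EARLI1 85 and AT4G12490 100 from the top, and 118 genes (0.731%) were at least 8-fold higher in mock. AT4G12490 passed the 5 FPKM limit through mock only, which favours a high rank. The cluster was picked with the levels of these groups in view, so nothing is read from the ranks. These levels come from separate Cuffdiff runs and are set side by side without a test. The mock treatment, the run and any other difference between the experiments go together between these groups and cannot be told apart. The labels do not say whether the plants were grown together.

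**Figure D3:**
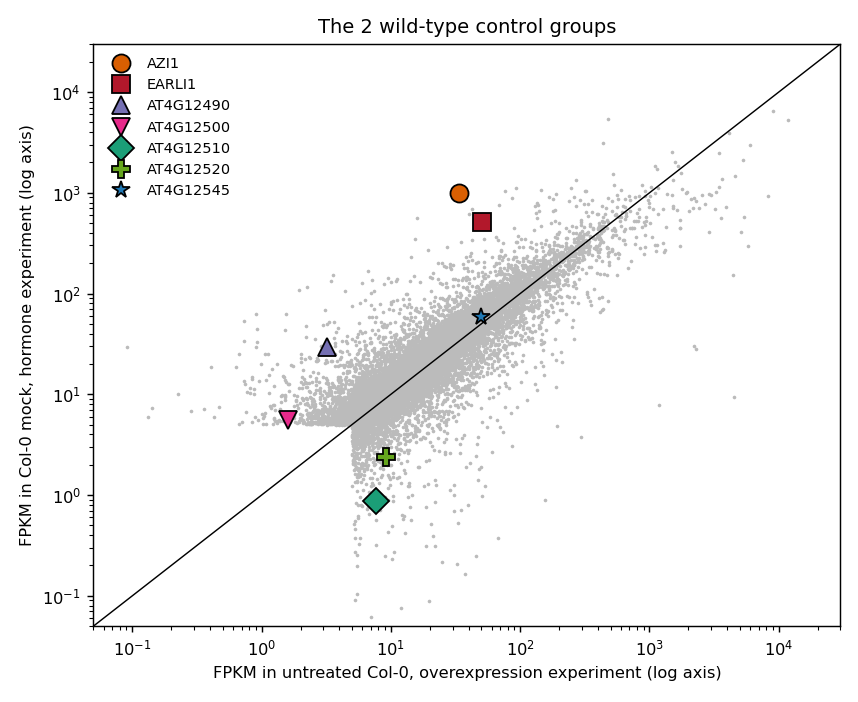
FPKM in Col-0 mock (vertical) against FPKM in untreated Col-0 (horizontal), both on log axes. Grey points are the 16148 genes detected in both controls with at least 5 FPKM in either, and cluster genes are coloured. The line marks equal levels. AZI1, EARLI1, AT4G12490 and AT4G12500 lie above the line, AT4G12510 and AT4G12520 below it, and AT4G12545 close to it.

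Genes around the row were read in the same way. On the side of AZI1, the next gene ORP2B, for an oxysterol-binding protein homologue, had 19.7 FPKM in BEH2-YFP and 16.1 FPKM in Col-0 and was not called. Beyond AT4G12545, AIR1, an auxin-induced relative of the cluster, had 2.07 FPKM in BEH2-YFP and 6.67 FPKM in Col-0 (log2 -1.69 ± 0.82) and was not called. AT4G12555, which overlaps AIR1 on the opposite strand, had 21.0 FPKM in BEH2-YFP and 48.7 FPKM in Col-0, 2.32-fold lower, and was called. CPR1, an F-box gene of defence control, had 30.6 FPKM in BEH2-YFP and 29.0 FPKM in Col-0.

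Among the 24 genes between members and up to 10 places to either side, 16 were tested in BEH2-YFP, with 3 called higher and 1 lower, where 7.31% of all tested genes were called higher and 4.53% lower. AT4G12495 had the highest ratio of them, 8.11-fold, but it overlaps the member AT4G12490, so its call may repeat that of the member. The others called higher were AT4G12580, of unknown function, with 9.60 FPKM in BEH2-YFP and 4.27 FPKM in Col-0, and SKU5. SKU5, for a protein of directed root growth, had 104 FPKM in BEH2-YFP and 70.1 FPKM in Col-0. With BZR1-YFP the Cuffdiff test of the authors' deposited table called 0 of the 16 tested neighbours, where 1.62% of all tested genes were called. That test gave 2 of them an unadjusted p-value under 0.05, and the share of all tested genes under that limit was not computed. With BL 2 of 15 were called, both higher, where 3.01% of all tested genes were called higher. SKU5 had 175 FPKM with BL and 106 FPKM in mock, and AT4G12450, a zinc finger gene, had 5.41 and 2.98 FPKM.

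**Figure D4:**
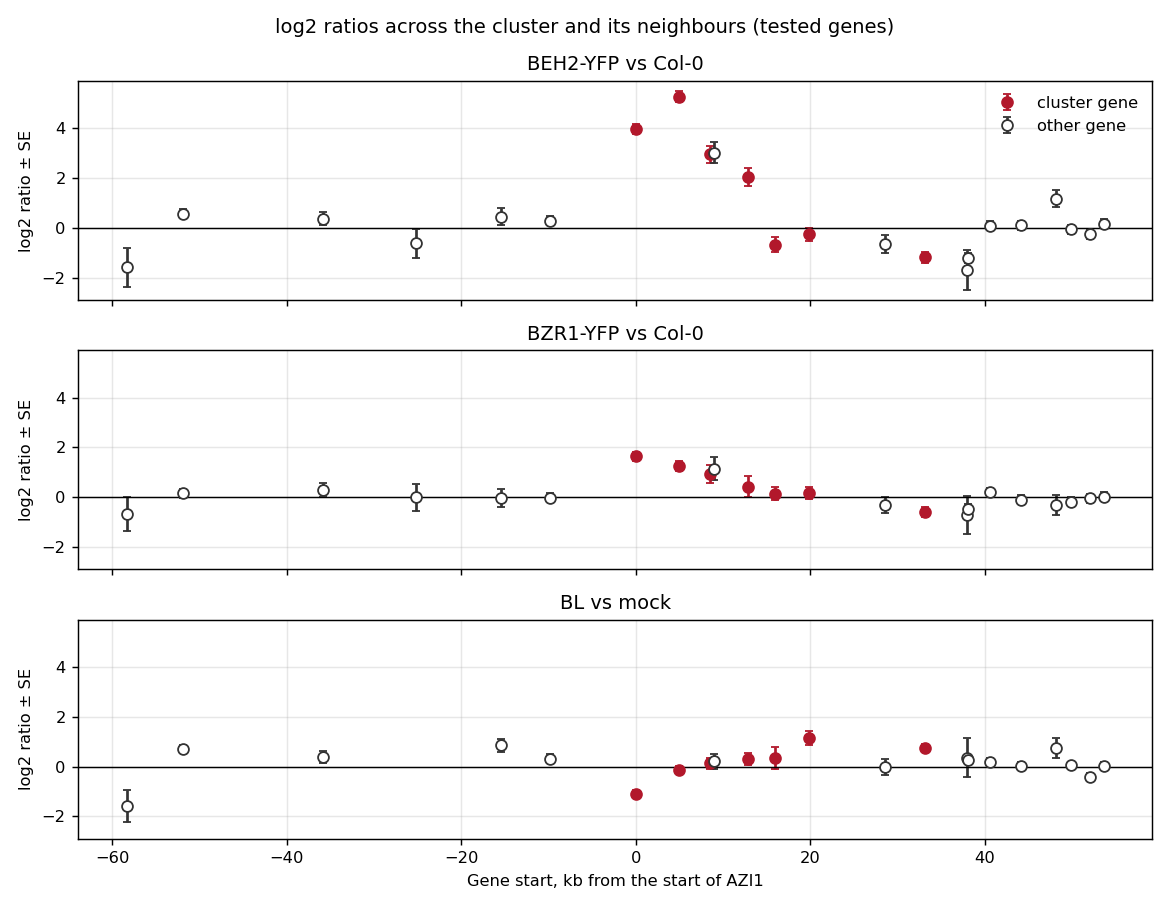
The log2 ratio ± derived standard error of tested cluster genes (red) and their neighbours (open) against the distance of each gene's start from that of AZI1 in kb, in the 3 comparisons. In BEH2-YFP the high ratios lie between AZI1 and AT4G12500, with AT4G12495 on top of AT4G12490.

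Genes of the same superfamily elsewhere were read from a list of 21 loci, of which 19 carry a matching description. In BEH2-YFP 18 of the 19 were tested, with 7 called higher and 1 lower, where 11.8% of all tested genes were called. Their median log2 ratio was 0.39, beside -0.01 over all tested genes. The strongest, AT4G22470, lies in another row of such genes on chromosome 4. AT4G22470 had 116 FPKM in BEH2-YFP and 2.24 FPKM in Col-0, 51.8-fold higher (log2 5.69 ± 0.27), above the ratio of EARLI1. Its row-mates AT4G22485, AT4G22517, AT4G22513 and AT4G22505 were 5.41-fold, 4.20-fold, 4.04-fold and 2.09-fold higher and called, so most of the 7 lie in this row. AT4G22490, with 59.4 FPKM in BEH2-YFP and 78.2 FPKM in Col-0, was not called. Outside the row, AT1G62500 and AT2G45180 were called at 1.51-fold and 1.67-fold higher. Sequence shared within this row was not examined.

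In the other comparisons AT4G22470 took the directions of AZI1. It had 11.2 FPKM in BZR1-YFP and 2.24 FPKM in Col-0, 4.99-fold higher, as the 1 gene of 18 tested that was called there, where 1.62% of all tested genes were called. AT4G22470 had 25.6 FPKM with BL and 115 FPKM in mock, 4.50-fold lower (log2 -2.17 ± 0.16). With BL 4 of 18 were called lower, AT4G22485 (2.02-fold) and AT4G22505 (1.60-fold) among them, and 1 higher, where 5.46% of all tested genes were called. The median log2 ratio of the list was -0.27, beside 0.00 over all tested genes. AT4G22470 also stood apart between the controls, at 115 FPKM in mock and 2.24 FPKM in untreated Col-0.

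**Figure D5:**
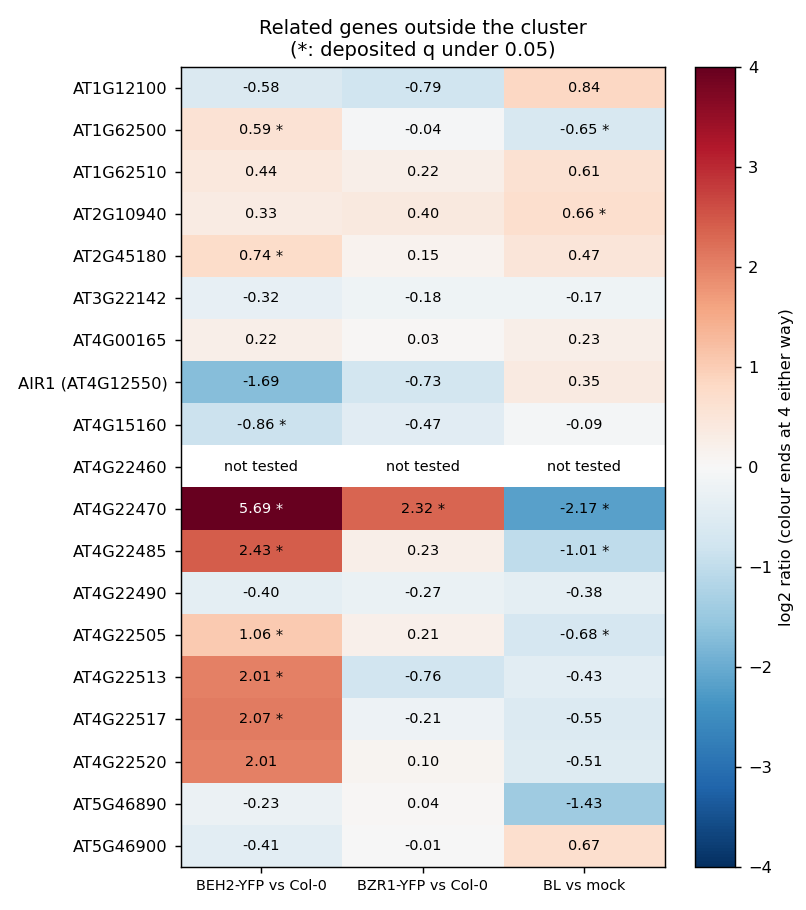
The log2 ratio of group FPKM for 19 related genes outside the cluster (rows, by locus) in the 3 comparisons (columns); an asterisk marks a deposited q-value under 0.05. AT4G22470 has the highest ratio in BEH2-YFP (5.69) and the lowest with BL (-2.17).

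AZI1 acts in systemic acquired resistance beside the lipid transfer protein DIR1, glycerol metabolism and the kinases MPK3 and MPK6, so an 18-gene list of that pathway was set beside it. In BEH2-YFP 3 of 18 were called higher and 4 were called lower, where 7.31% of all tested genes were called higher and 4.53% lower. The median log2 ratio of the 18 was -0.27, beside -0.01 over all tested genes. PR1, a marker of salicylate-dependent defence, had 500.1 FPKM in BEH2-YFP and 15.2 FPKM in Col-0, and SARD1, a regulator of salicylate synthesis, had 9.67 and 2.61 FPKM. The companion markers went the other way: BGL2, the glucanase PR2, had 21.6 FPKM in BEH2-YFP and 63.2 FPKM in Col-0, 2.92-fold lower, and PR5 had 3.82 and 12.6 FPKM, 3.29-fold lower, both called. ALD1, which makes the precursor of the mobile signal N-hydroxypipecolic acid, had 0.415 FPKM in BEH2-YFP and 1.67 FPKM in Col-0, 4.02-fold lower. DIR1 had 64.7 FPKM in BEH2-YFP and 46.7 FPKM in Col-0, and neither it nor MPK3 (41.2 and 48.3 FPKM) nor MPK6 (35.1 and 32.7 FPKM) was called. Of the glycerol metabolism genes, NHO1 (also GLI1) had 89.1 FPKM in BEH2-YFP and 57.3 FPKM in Col-0 and was called higher. GLY1 (also SFD1) had 6.96 and 9.61 FPKM in these groups and was not called.

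With BZR1-YFP the Cuffdiff test of the authors' deposited table called 0 of these 18 genes, where 1.62% of all tested genes were called. That test gave 6 of the 18 an unadjusted p-value under 0.05, and the share of all tested genes under that limit was not computed. With BL 2 were called higher and 1 lower, where 3.01% of all tested genes were called higher and 2.45% lower. PR1 had 54.0 FPKM with BL and 26.9 FPKM in mock, SARD1 had 13.4 and 8.01 FPKM, and BGL2 had 32.8 and 51.3 FPKM.

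The genes whose pattern was most like that of EARLI1 were sought among 16738 genes with at least 5 FPKM in some group, by distance over the 3 differences of log2(FPKM + 1). The closest were NRT1.8, a nitrate transporter (distance 0.70), BAM5, a beta-amylase (1.05), PTR3, a peptide transporter (1.15), BGLU45, a beta-glucosidase (1.23), and the microRNA locus MIR1886 (1.31). NRT1.8 and BGLU45 reached 5 FPKM in BEH2-YFP only, a group in view when the cluster was picked. NRT1.8 had 0.680 FPKM in Col-0, where the added 1 shrinks its ratios. With BL, NRT1.8 and PTR3 were lower than in mock, as EARLI1 was slightly. BAM5 (0.798 FPKM with BL and 0.417 in mock), BGLU45 (2.35 and 1.56) and MIR1886 (49.6 and 46.5) were higher. The added 1 shrinks the ratio of BAM5 in this comparison too. MIR1886 was listed at 0 FPKM in both BZR1-YFP and Col-0, so it showed no rise with BZR1-YFP. AZI1 was in place 15 from EARLI1, at a distance of 1.66. PTR3 was the closest to AZI1 (0.68), followed by AT2G17740 (0.83), the metallothionein gene MT1B (0.86), the senescence marker SAG13 (0.91) and AT1G27020 (0.97). PTR3 had 44.9 FPKM in BEH2-YFP, 4.90 in BZR1-YFP and 1.52 in Col-0, and 28.6 FPKM with BL and 43.7 in mock. The closest genes did not all share a direction between the controls. PTR3, NRT1.8, MIR1886, AT2G17740, MT1B and AT1G27020 were higher in mock, as AZI1 and EARLI1 were. AT1G27020 had 564 FPKM in mock and 15.9 FPKM in untreated Col-0, and NRT1.8 had 3.71 and 0.680 FPKM. SAG13 was nearly level, at 18.0 and 16.3 FPKM in these groups. BAM5 (0.417 and 12.9 FPKM) and BGLU45 (1.56 and 2.13 FPKM) were lower in mock.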

How the data were processed

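Per the submitters' processing notes, TopHat2 2.0.13 and Cuffdiff 2.2.0 were used with TAIR10; the sources used here do not give the trimming or the use of strand. The authors deposited 3 tables, each with 1 FPKM per gene and group, pooled over 2 libraries, per the file headers. The log2 fold change, p-value and q-value, and the test statistic, a score, are those of the authors' Cuffdiff run in the deposited tables. From these the log2 ratio was recomputed without a pseudocount or filter. Its standard error is the absolute log2 ratio over the absolute statistic and over the median factor (1.42 to 1.43, from p-values between 0.0002 and 0.9) that turns the statistic into a normal deviate. Both overexpression tables list the same Col-0 FPKM at each of the 38303 genes.

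The members, lists and rules were chosen with earlier results of these data known. Named genes are the 8 members, up to 3 called genes per list and comparison with the largest absolute log2 ratio, and the 5 genes nearest to EARLI1 and to AZI1; other named genes, such as neighbours, kinases and PR genes beyond PR1, were added after their values were seen. CWLP and ELP were dropped from the related list for want of a matching description. Sequences are of TAIR10.1, while the submitters' processing notes name TAIR10. Upstream windows of the other 5 members are not reported here. Identity is the share of identical columns in a global alignment. Samples were grouped by title. Python 3.11.15, pandas 2.3.3, SciPy 1.17.1, Biopython 1.88 and matplotlib 3.10.9 were used.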

Additional observations from a re-analysis of the deposited data

How the results depend on the processing

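Counts of called members were recomputed at q-values below 0.1, for changes of 2-fold or more, with p-values adjusted within each table, and with at least 1 FPKM in the higher group. All 12 recounts were within 1.5 times the reported count, a wide limit for counts this small. With BZR1-YFP the count was 3 at q-values below 0.1, against 2 reported. With BL it was 2 for changes of 2-fold or more, against 3 reported. The other recounts equalled the reported count. Medians were recomputed with pseudocounts of 1 and 0.1, with another centring, with upper quartile scaling, without members under 1 FPKM, and with AT4G12510 and AT4G12520 summed. Of 18 medians 16 moved by less than the median standard error of the members, and none changed sign. For BEH2-YFP against Col-0 the median log2 ratio was 2.04 without members under 1 FPKM and 2.04 with the pair summed, against 0.89 over all 8, because each leaves an odd number of genes. No paired analysis was possible because each table holds 1 pooled value per group. Leaving out a replicate was not run for the same reason. The depth is unknown, so no detection limit can be given for AT4G12530.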

Other observations

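AT5G46890 and AT5G46900, further members of the superfamily outside the cluster, lay between the controls in the direction of AT4G12510 and AT4G12520. AT5G46890 had 0.798 FPKM in Col-0 mock and 39.4 FPKM in untreated Col-0, and AT5G46900 had 0.702 and 31.0 FPKM. In BEH2-YFP they had 33.7 and 23.2 FPKM, and neither was called against Col-0. AT2G45180, a more abundant relative, went the other way, at 1522 FPKM in mock and 526 FPKM in untreated Col-0.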
